A study of Zea mays with 18 samples.

Results

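Roots of the maize strigolactone mutant *zmccd8* grown under water stress (WS) were compared with roots of wild-type (WT) plants grown under the same stress. The comparison rests on 6 of the 18 libraries of the series, 3 of *zmccd8* and 3 of WT. It covers the features that reached at least 1 FPKM (fragments scaled to gene length and library size) in at least 3 of the 18 libraries, which were 27530 of the 55661 features listed. Of these, 24412 were annotated genes and 3118 were transcripts assembled by the authors. Chromosome 3, which carries *ZmCCD8*, held 2975 of the tested features and is described apart from the other chromosomes, which held 24555.

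The *zmccd8* plants carried a *Ds* transposon insertion in *ZmCCD8* and WT was the inbred line B73, the background of the mutant. Under WS both genotypes received complete nutrient solution at transplanting and no irrigation afterwards. Values are set beside those of control plants (CT), which were irrigated with complete solution, and of nitrogen-starved plants (0N), which received it without nitrate. All plants grew for 4 weeks in vermiculite, and RNA came from the whole root system with tissue of several plants pooled in each replicate, so root types and cell types cannot be told apart, nor can fewer cells of a type from less RNA per cell. The mutant is represented by 1 insertion allele.

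Strigolactones are carotenoid-derived hormones that roots make and exude. The isomerase D27 and the cleavage dioxygenases CCD7 and CCD8 make carlactone, which cytochromes P450 of the MAX1 type oxidise further. The hormone is bound by the esterase-like receptor D14, which with the F-box protein MAX2 sends the repressor DWARF 53 and its SMAX1-like relatives to degradation. In roots strigolactones act on branching and root hairs, attract mycorrhizal fungi and are known to respond to nutrient and water supply.

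*ZmCCD8* (Zm00001eb153000, chr3:202178668-202182189 of Zm-B73-REFERENCE-NAM-5.0) and *ZmCCD7* are the genes that the results on synthesis turn on, so the primers that the study designed for them are shown, 5′ to 3′, with no part in capitals.
*ZmCCD8* forward primer: agaaaggtgtctctgctgct
*ZmCCD8* reverse primer: ctatgggctcgctcacatga
*ZmCCD7* forward primer: tccggctcgcgcagattc
*ZmCCD7* reverse primer: ctgcccagaacccatgga

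The WS libraries held between 32115558 and 43429912 reads on genes, rebuilt from FPKM and gene length. Genes known from roots were expressed in both genotypes. The summed level of the plasma membrane aquaporins, water channels, was 793 to 818 FPKM in *zmccd8* and 805 to 880 FPKM in WT, and that of the Casparian strip membrane proteins of the endodermis was 234 to 285 FPKM and 273 to 284 FPKM in *zmccd8* and WT. The nicotianamine synthases, which make a metal chelator, summed to 103 to 142 FPKM in *zmccd8* and 62.0 to 94.2 FPKM in WT, and the high-affinity nitrate transporters to 153 to 189 FPKM in *zmccd8* and 85.6 to 204 FPKM in WT. Among leaf markers the Rubisco small subunit summed to 0.0798 to 0.315 FPKM in *zmccd8* and 0.586 to 1.85 FPKM in WT, and the chlorophyll a-b binding proteins summed to 7.42 to 9.99 FPKM and 12.9 to 31.2 FPKM in *zmccd8* and WT. Of 34 chlorophyll a-b binding protein genes 12 were at 0 in all 6 libraries. Both of these leaf markers were low, and lower in *zmccd8* without overlap. Phosphoenolpyruvate carboxylase, which roots also use, summed to 390 to 454 FPKM in *zmccd8* and 348 to 397 FPKM in WT, and pyruvate phosphate dikinase to 21.0 to 27.3 FPKM in *zmccd8* and 19.0 to 22.7 FPKM in WT.

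Differences are given on the log2(FPKM + 1) scale as *zmccd8* minus WT with their standard error (SE), which understates the change of genes with low values. Genes were called where the adjusted p of limma, by Benjamini-Hochberg over the 27530 features, was at most 0.05 and the absolute log2 difference at least 1. Under WS 248 features were called, 0.901% of those tested. In *zmccd8*, 134 of them (0.487% of those tested) rose and 114 (0.414%) fell. All 248 had libraries that did not overlap between genotypes, which was the case for 20.0% of all tested features. Without regard to adjustment, 3719 features (13.5%) had a p under 0.05, and the median log2 difference of all tested features was −0.02. The number of calls varied with the libraries used. Without WT replicate 1 the count was 152, and 133 features were called when only annotated genes were tested.

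The expression filter bears on these counts. Only through *zmccd8* libraries did 318 features pass it, of which 96 were called, and only through WT libraries 266, of which 54 were called. The other 26946 reached 1 FPKM in at least 1 library of each genotype, and 98 of them were called. At the edge of the filter, Zm00001eb322540 was just inside, with 0.325, 0.247 and 0.279 FPKM in *zmccd8* and 0.387, 0.310 and 0.358 FPKM in WT. Zm00001eb215070 was just outside, with 0.409, 0.720 and 0.926 FPKM in *zmccd8* and 1.55, 1.000 and 0.492 FPKM in WT.

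*ZmCCD8* transcript was not lower in the mutant under WS. It was at 27.4, 24.2 and 18.1 FPKM in *zmccd8* and at 10.7, 9.22 and 8.85 FPKM in WT. Every *zmccd8* library was above every WT library, and the gene rose by 1.18 (SE 0.17, adjusted p = 0.0218). The call was kept when *zmccd8* replicate 3 was left out (1.34) and was lost without any of the other 5 libraries, where the difference lay between 1.06 and 1.25. Under CT *ZmCCD8* was at 16.6, 5.63 and 8.22 FPKM in *zmccd8* and 5.80, 8.76 and 4.16 FPKM in WT, which overlap. Under 0N it was at 17.6, 9.47 and 19.2 FPKM in *zmccd8* and 70.9, 64.1 and 47.8 FPKM in WT, and it was called lower (−1.95). Reads were thus counted on the gene in every *zmccd8* library. Where these reads lie relative to *Ds* was not analysed here, and whether the levels go with the genotype labels was not tested.

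The other genes of synthesis pointed the same way in part. *ZmCCD7* (Zm00001eb074640, chromosome 2) was at 14.9, 12.3 and 9.88 FPKM in *zmccd8* and 6.81, 6.75 and 5.06 FPKM in WT, a difference of 0.88 (SE 0.18, adjusted p = 0.0945) that was not called although the libraries did not overlap. Both D27 genes had overlapping libraries, with differences of 0.69 for Zm00001eb114700 and 0.42 for Zm00001eb114610. The cytochromes P450 of the MAX1 type differed by −0.24 (Zm00001eb123090) and 0.08 (Zm00001eb384100). Of the 6 tested genes of synthesis 1, *ZmCCD8* itself, was thus called (16.7%), against 0.586% over all annotated genes. The median difference of the 6 was 0.56, against −0.02 over all annotated genes.

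Of 29 tested genes in the group of strigolactone and karrikin perception 2 (6.90%) were called, against 0.586% over all annotated genes. Both fell, a D14 and a DWARF 53 gene. The group also takes in many genes annotated as the strigolactone hydrolase CXE15, which stand for breakdown of the hormone and not for perception. The receptor gene D14 (Zm00001eb007670, chr1:22649192-22651959) was at 10.1, 11.6 and 11.6 FPKM in *zmccd8* and at 18.8, 28.3 and 24.1 FPKM in WT. It fell by 1.02 on the log2 scale (SE 0.16, adjusted p = 0.035). The repressor gene DWARF 53 (Zm00001eb404750, chr10:129963-134779) was at 6.46, 5.52 and 5.01 FPKM in *zmccd8* and at 14.01, 15.7 and 10.3 FPKM in WT, and it fell by 1.09 (SE 0.18, adjusted p = 0.0438). Neither gene had overlapping libraries. Each call depended on most libraries, since that of D14 held only without WT replicate 1 (−1.17) and that of DWARF 53 only without WT replicate 3 (−1.26). The smallest absolute difference when a library was left out was 0.89 for D14 and 0.97 for DWARF 53. DWARF 53 overlaps a feature on the opposite strand, and whether strand was used in counting is not given in the sources used here.

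Other members of this group had values in the same direction without a call. A second D14 gene (Zm00001eb400720) was at 8.30, 7.29 and 6.51 FPKM in *zmccd8* and 12.5, 11.7 and 12.3 FPKM in WT, with a difference of −0.66 (adjusted p = 0.0703). The MAX2 homolog Zm00001eb376660 was at 6.31, 7.69 and 8.27 FPKM in *zmccd8* and 10.98, 10.5 and 16.4 FPKM in WT (−0.67, adjusted p = 0.209). In both genes the libraries did not overlap between genotypes. The gene Zm00001eb300670, annotated as the strigolactone hydrolase CXE15, which breaks the hormone down in Arabidopsis, was at 10.4, 9.86 and 11.98 FPKM in *zmccd8* and 19.8, 21.5 and 13.9 FPKM in WT (−0.71, adjusted p = 0.154). Another CXE15 gene, Zm00001eb300620, was at 0.109, 0 and 0 FPKM in *zmccd8* and 1.25, 0.759 and 0.921 FPKM in WT. It passed the adjusted p (0.0322) but not the size (−0.93). The median difference of the 29 genes, CXE15 genes included, was −0.19. Some members were flat or higher, such as the CXE15 gene Zm00001eb336040 (0.39) and the D14-like esterase gene Zm00001eb020660 (−0.10). At an unadjusted p under 0.05 there were 10 lower, CXE15 genes among them, and 0 higher, against 1813 lower and 1416 higher among the 24412 annotated genes.

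**Figure D1:**
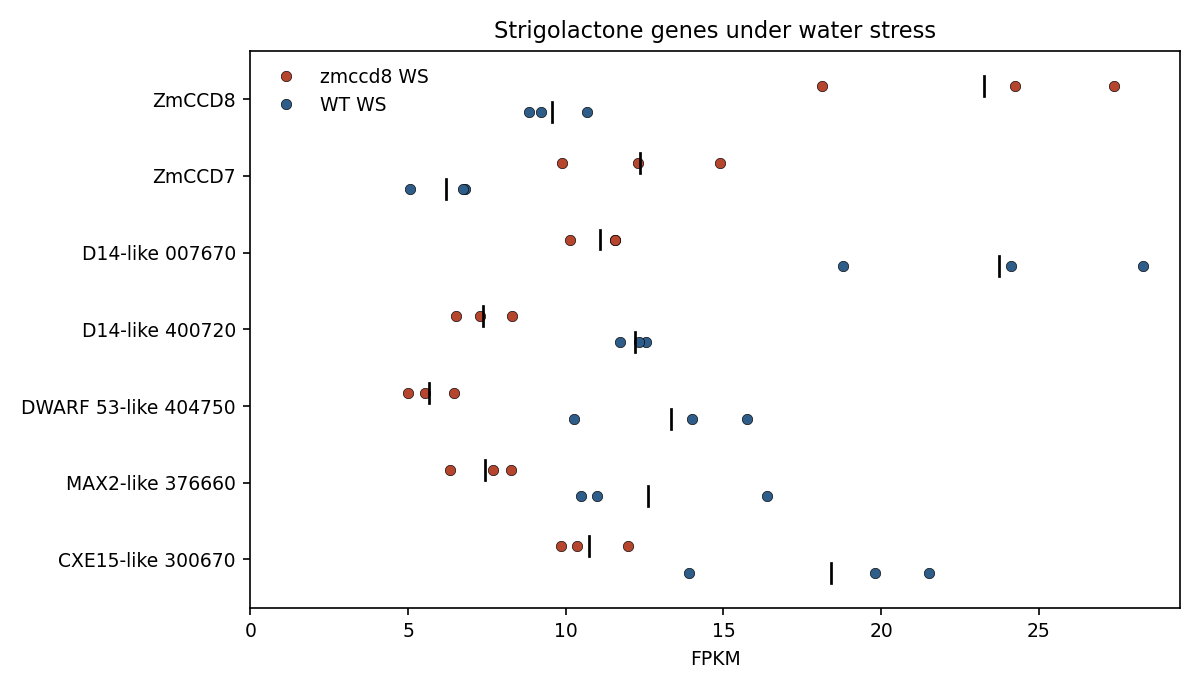
FPKM (x axis) of strigolactone genes in roots under WS, with 1 point per library, *zmccd8* above WT in each row and a bar at the group mean. *ZmCCD8* lay at 18.1 to 27.4 FPKM in *zmccd8* and 8.85 to 10.7 FPKM in WT, while the first D14 gene lay at 10.1 to 11.6 FPKM in *zmccd8* and 18.8 to 28.3 FPKM in WT.

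The same genes were read under the other conditions. DWARF 53 was also called under CT (−1.03) and under 0N (−1.05). D14 was not called under CT (0.21) or under 0N (−0.25), and the term for genotype by WS, which tests whether the genotype difference under WS differs from that under CT, had an unadjusted p of 0.000627 for it and did not pass adjustment.

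Calls were densest on chromosome 3, where 136 of 2975 tested features (4.57%) were called, 45 higher and 91 lower in *zmccd8*. On the other chromosomes 112 of 24555 (0.456%) were called, 89 higher and 23 lower, and no other single chromosome had more than 0.682% called. Without WT replicate 1 the chromosome 3 count was 86, without *zmccd8* replicate 1 it was 86 and without *zmccd8* replicate 2 it was 87. Without WT replicate 1 the count outside chromosome 3 was 66.

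Along chromosome 3 the called features were concentrated on the long stretch that includes *ZmCCD8*, whose start is at 202.18 Mb. Between 0 and 120 Mb the 3 intervals counted held 3 of 645, 0 of 241 and 2 of 169. From 120 to 160 Mb 23 of 469 were called, and from 160 to 180 Mb 15 of 234. The share was 11.1% from 180 to 190 Mb, 12.5% from 190 to 200 Mb and 18.7% from 200 to 210 Mb, where 33 of 39 called features were lower. Beyond 210 Mb it dropped to 3 of 193, 1 of 223 and 1 of 177 in the intervals up to 220, 230 and 250 Mb. Within 20 Mb of the start of *ZmCCD8* 83 of 813 were called, and farther away 53 of 2162.

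**Figure D2:**
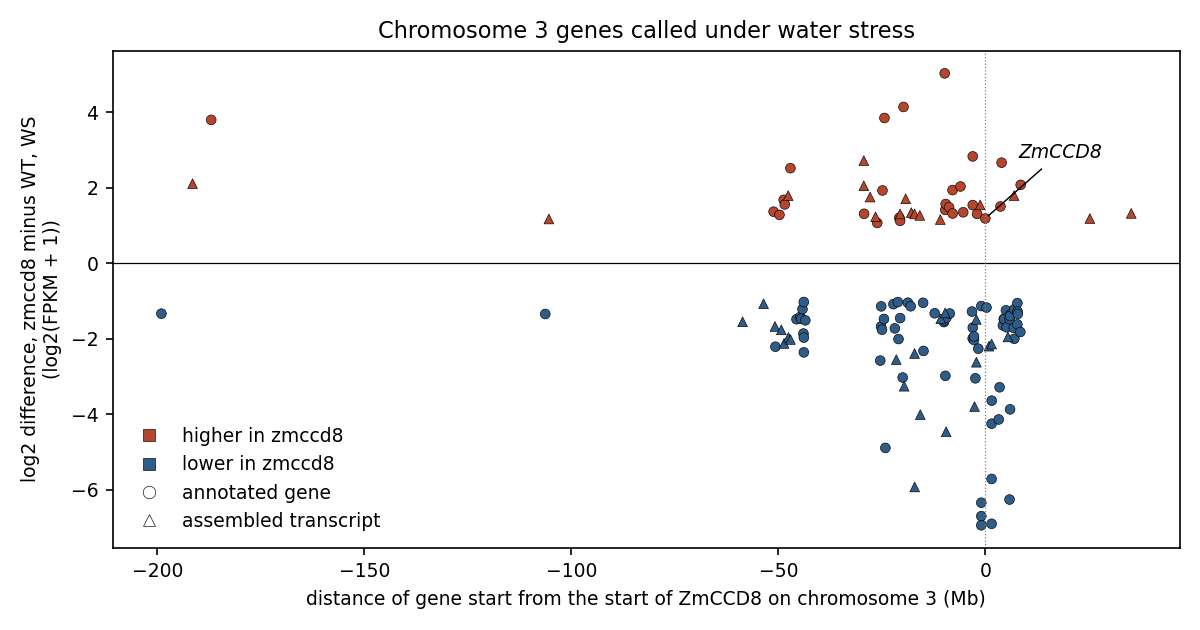
Log2 difference of the 136 called chromosome 3 features under WS (y axis, *zmccd8* minus WT on log2(FPKM + 1)) against the distance of their start from that of *ZmCCD8* in Mb (x axis), with circles for annotated genes and triangles for assembled transcripts. Most points lie between about 60 Mb before and 10 Mb after *ZmCCD8*, and the lowest value is −6.94.

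Among the 98 annotated chromosome 3 genes called, 28 rose and 70 fell. No read was counted in any *zmccd8* library for 19 of them, and none in any WT library for 5. A gene at 0 in 1 genotype has no finite fold change, so a lower bound is given from the level that 3 reads over the 3 libraries would have. Same-strand overlap with another feature, which can split reads between them, affected 29 of the 98. Besides those marked where named, these include BUD31 homolog 1, SWEET13, amino acid permease 5, laccase-7, respiratory burst oxidase homolog H and DNA polymerase epsilon.

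The largest falls on chromosome 3 were genes with no count in *zmccd8*. Zm00001eb152780 (chr3:201217389-201219198, with no description in the file) was at 0 in the 3 *zmccd8* libraries and at 127, 124 and 115 FPKM in WT, at least 1882-fold lower. Its neighbours Zm00001eb152770 and Zm00001eb152760, which end within a few kb of it, were also at 0 in *zmccd8*, and in WT they were at 97.4, 108 and 104 FPKM and at 72.3, 87.6 and 81.5 FPKM. The next gene on the chromosome, for the La-related protein 6A, an RNA-binding protein (Zm00001eb152790), was reduced but not absent, at 58.0, 55.3 and 51.4 FPKM in *zmccd8* and 131, 134 and 103 FPKM in WT (−1.14, SE 0.13).

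A second run of adjacent genes without counts lay 1.53 Mb beyond the start of *ZmCCD8*. There Zm00001eb153400, annotated as the long chain acyl-CoA synthetase 9, which activates fatty acids, was at 0 in *zmccd8* and at 123.2, 150.3 and 90.2 FPKM in WT, at least 1956-fold lower. Its neighbours Zm00001eb153390, Zm00001eb153410 and Zm00001eb153420 were at 0 in *zmccd8* too. Their WT levels were 62.6, 57.3 and 38.1 FPKM for Zm00001eb153390, 18.4, 22.5 and 14.2 FPKM for Zm00001eb153410 and 12.2, 10.9 and 11.4 FPKM for Zm00001eb153420. The cold-responsive protein kinase 1 gene (Zm00001eb154780, chr3:208036484-208040053) was at 0 in *zmccd8* and at 79.6, 95.0 and 57.2 FPKM in WT, at least 6041-fold lower, and it overlaps another feature on the same strand. These genes without any count in *zmccd8* under WS were each called lower under CT and under 0N as well. Zm00001eb152790, Zm00001eb153410 and Zm00001eb153420 are named after their values were seen, as neighbours.

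The highest rises on chromosome 3 were nearly absent from WT. Zm00001eb150350 (chr3:192375643-192379968, no description) was at 33.2, 29.3 and 38.2 FPKM in *zmccd8* and 0, 0 and 0.183 FPKM in WT (5.02, SE 0.16). The splicing-factor gene BUD31 homolog 1 (Zm00001eb147380) was at 28.8, 28.3 and 30.8 FPKM in *zmccd8* and 0.780, 0.521 and 0.892 FPKM in WT (4.13, SE 0.14). A gene annotated as the alpha subunit of the signal recognition particle receptor, which docks ribosomes at the endoplasmic reticulum (Zm00001eb146090), was at 12.6, 9.94 and 18.8 FPKM in *zmccd8* and at 0 in WT, at least 221-fold higher. A phosphoglycerate mutase gene of glycolysis at the far end of the chromosome (Zm00001eb123700, chr3:15191278-15193703) was at 16.2, 11.01 and 11.9 FPKM in *zmccd8* and at 0 in WT, at least 450.2-fold higher. Zm00001eb152140 (chr3:199151992-199154189), which carries a domain of unknown function, was at 6.47, 5.67 and 6.13 FPKM in *zmccd8* and at 0 in WT, at least 380.3-fold higher. The pathogen-related protein gene Zm00001eb154120 differed from these in that WT expressed it. It was at 35.4, 51.7 and 49.9 FPKM in *zmccd8* and 8.02, 7.60 and 3.998 FPKM in WT (2.66, SE 0.26, adjusted p = 0.00433).

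Outside chromosome 3, the called annotated genes numbered 45, of which 25 rose and 20 fell. Together with chromosome 3 this made 143 annotated genes, 0.586% of the 24412 tested. Of the 45, 5 had no count in any WT library and 0 lacked counts in all *zmccd8* libraries, whereas on chromosome 3 19 lacked counts in all *zmccd8* libraries. When each of the 6 libraries was left out in turn, 10 of the 45 were called every time, compared with 45 of the 98 on chromosome 3. Only 4 of the 45 overlap another feature on the same strand, among them the aminotransferase gene Zm00001eb016230 described below.

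The highest rise anywhere was a gene on chromosome 6. Zm00001eb281930 (chr6:134427234-134427941), annotated like the chromosome 3 gene above as a 2,3-bisphosphoglycerate-independent phosphoglycerate mutase, was at 90.6, 82.3 and 83.9 FPKM in *zmccd8* and 0, 0.127 and 0.178 FPKM in WT (6.30, SE 0.12). A gene for the succinate dehydrogenase flavoprotein subunit of mitochondrial respiration (Zm00001eb018220, chromosome 1) was at 12.7, 32.9 and 30.7 FPKM in *zmccd8* and at 0 in WT, at least 1402-fold higher. How reads shared with similar copies were assigned is not given in the sources used here. Zm00001eb306620 (chromosome 7, no description) was at 20.7, 15.7 and 17.6 FPKM in *zmccd8* and at 0 in WT, at least 914-fold higher. The phosphoenolpyruvate/phosphate translocator 3 gene (Zm00001eb057990), a carrier of the plastid envelope, was at 4.70, 4.41 and 2.38 FPKM in *zmccd8* and at 0 in WT, at least 133-fold higher. All 4 were called under CT and 0N too, in the same direction.

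Other rises were graded. ASI1-immunoprecipitated protein 1 (Zm00001eb076310), named for a chromatin factor of Arabidopsis, was at 6.31, 7.23 and 4.16 FPKM in *zmccd8* and 0.827, 0.120 and 0.310 FPKM in WT (2.28, SE 0.25). Zm00001eb189310 (chromosome 4, no description) was at 3.60, 10.2 and 5.94 FPKM in *zmccd8* and 0.346, 0.0302 and 0.0424 FPKM in WT (2.65, SE 0.32). Under CT its difference was 0.74, and the term for genotype by WS had an unadjusted p of 0.000423. Adjacent genes on chromosome 6 rose together. Zm00001eb266000 (no description) was at 65.9, 79.6 and 68.7 FPKM in *zmccd8* and 19.5, 8.15 and 11.1 FPKM in WT (2.46, SE 0.28). Its neighbour Zm00001eb265990, an alpha-mannosidase that trims sugar chains, was at 19.1, 19.9 and 16.8 FPKM in *zmccd8* and 8.58, 4.01 and 3.30 FPKM in WT (1.73, SE 0.29, adjusted p = 0.0492). The alpha-mannosidase call held in only 1 of the 6 fits that left out a library.

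None of the 20 genes that fell outside chromosome 3 lacked counts in all *zmccd8* libraries, against 19 of the 70 on it. The lowest difference was that of a WAT1-related transporter gene (Zm00001eb027390, chr1:131418852-131422075), at 1.00, 0.331 and 0.684 FPKM in *zmccd8* and 7.66, 6.04 and 6.69 FPKM in WT (−2.24, SE 0.19, adjusted p = 0.00248). It was called in all 6 fits that left out a library and under CT (−2.02). The gene for a cytokinin riboside phosphoribohydrolase of the LOG type, which releases active cytokinin (Zm00001eb045690), was at 3.16, 3.91 and 3.12 FPKM in *zmccd8* and 14.4, 24.1 and 11.3 FPKM in WT (−1.94, SE 0.26, adjusted p = 0.0186). Its call held in 2 of the 6 fits that left out a library. It was the only gene called among 54 tested genes of cytokinin metabolism and response (1.85%), against 0.586% over all annotated genes.

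In the carbon families 6 of 351 tested genes (1.71%) were called, against 0.586% over all annotated genes. Outside chromosome 3, 2 of the 6 fell and 1, the phosphoglycerate mutase above, rose. The polyol transporter 5 gene (Zm00001eb021140), a carrier of sugar alcohols, was at 18.6, 14.7 and 14.2 FPKM in *zmccd8* and 39.1, 49.4 and 62.2 FPKM in WT (−1.59, SE 0.18, adjusted p = 0.00979). An invertase/pectin methylesterase inhibitor (Zm00001eb304180), of a family that blocks sucrose-cleaving or wall-modifying enzymes, was at 0.438, 0.752 and 0.164 FPKM in *zmccd8* and 3.06, 2.44 and 3.34 FPKM in WT (−1.46, SE 0.19). In no carbon family by the lists used, but among the called genes, were the following. Glyoxysomal malate synthase (Zm00001eb079170), an enzyme of the glyoxylate cycle that is named here after its values were seen, was at 16.98, 13.7 and 20.9 FPKM in *zmccd8* and 34.3, 38.2 and 41.7 FPKM in WT (−1.12). The mitochondrial alanine-glyoxylate aminotransferase 2 homolog 3 (Zm00001eb016230) was at 14.03, 10.7 and 8.52 FPKM in *zmccd8* and 33.2, 30.5 and 27.4 FPKM in WT (−1.40, SE 0.18). In none of these genes did the libraries overlap. The polyol transporter call held in 5 of the 6 fits that left out a library, that of the inhibitor in 2, that of malate synthase in 1 and that of the aminotransferase in 3.

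Other falls were spread over roles. Metacaspase-1 (Zm00001eb018900), of a protease family tied to cell death in plants, was at 91.9, 150.5 and 109.9 FPKM in *zmccd8* and 306, 360.3 and 284 FPKM in WT (−1.45, SE 0.20, adjusted p = 0.0197), a call that held in 1 of 6 fits without a library. A bZIP transcription factor gene (Zm00001eb315850) was at 8.32, 6.07 and 11.2 FPKM in *zmccd8* and 25.2, 27.2 and 31.1 FPKM in WT (−1.63, SE 0.20, adjusted p = 0.0134). The MYB2 gene (Zm00001eb111710) was at 1.12, 1.28 and 0.861 FPKM in *zmccd8* and 2.96, 4.32 and 3.21 FPKM in WT (−1.10, SE 0.17), and its call held in 0 of the 6. Zm00001eb075760_T004_gene, a short feature on chromosome 2 that overlaps another on the same strand, was at 4.11, 3.71 and 4.99 FPKM in *zmccd8* and 12.5, 15.7 and 23.3 FPKM in WT (−1.75, SE 0.23).

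**Figure D3:**
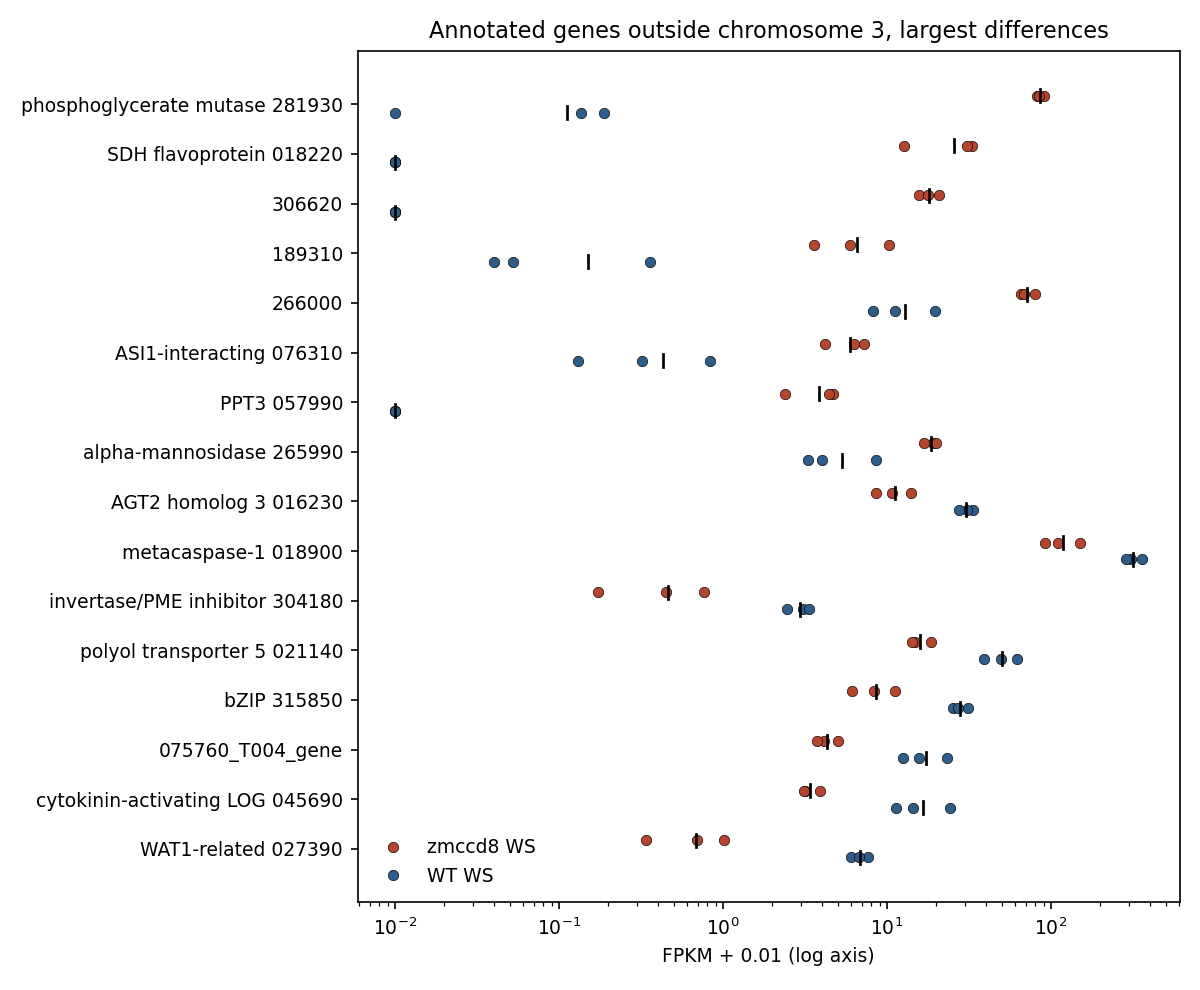
FPKM plus 0.01 on a log axis (x) for the 8 annotated genes outside chromosome 3 with the highest and the 8 with the lowest log2 difference under WS, with 1 point per library, *zmccd8* above WT in each row and a bar at the group mean. In every row the *zmccd8* and WT points do not overlap, and the top row, a phosphoglycerate mutase, lies at 82.3 to 90.6 FPKM in *zmccd8* and at 0 to 0.178 FPKM in WT.

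Assembled transcripts made up 105 of the 248 calls, 38 on chromosome 3 (17 higher, 21 lower) and 67 elsewhere. Outside chromosome 3, 64 of the 67 rose and 3 fell, and 54 had no count in any WT library. Of all called features, annotated or assembled, 96 passed the expression filter only through *zmccd8* libraries and 54 only through WT libraries. For such features the filter bears on the direction. How many of the 67 are among them was not counted, so their direction is not evidence apart from the filter. The highest was on chromosome 7 (chr7:104878129-104888629), at 19.3, 29.6 and 16.8 FPKM in *zmccd8* and at 0 in WT, at least 578-fold higher. A transcript on chromosome 1 (chr1:254645911-254646518), annotated like the plastid fatty acid exporter FATTY ACID EXPORT 3, was at 15.0, 12.96 and 16.7 FPKM in *zmccd8* and at 0 in WT, at least 241-fold higher. One on chromosome 8 (chr8:100075585-100081124) was at 20.7, 15.0 and 5.63 FPKM in *zmccd8* and at 0 in WT, at least 776-fold higher.

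On chromosome 3 the 3 lowest assembled transcripts lay at most 17.1 Mb before *ZmCCD8*. The transcript at chr3:185126207-185128418 was at 0 in *zmccd8* and at 60.4, 67.4 and 52.7 FPKM in WT, at least 4743-fold lower. That at chr3:192723765-192726755 was at 0.0283, 0.0332 and 0 FPKM in *zmccd8* and 23.4, 21.3 and 20.0 FPKM in WT (−4.46). That at chr3:186476249-186478527 was at 0 in *zmccd8* and at 16.99, 16.1 and 12.7 FPKM in WT, at least 460.4-fold lower. Of the 38 called on chromosome 3, 15 were at 0 in all *zmccd8* libraries and 12 at 0 in all WT libraries.

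Rises from no count in WT were the commonest kind among these transcripts, so 2 of them, chosen for their shortness after the values were seen, are shown whole, as assembled by the authors, 5′ to 3′, with the longest reading frame from a start to a stop codon in capitals.
Transcript at chr1:188843336-188843804, plus strand: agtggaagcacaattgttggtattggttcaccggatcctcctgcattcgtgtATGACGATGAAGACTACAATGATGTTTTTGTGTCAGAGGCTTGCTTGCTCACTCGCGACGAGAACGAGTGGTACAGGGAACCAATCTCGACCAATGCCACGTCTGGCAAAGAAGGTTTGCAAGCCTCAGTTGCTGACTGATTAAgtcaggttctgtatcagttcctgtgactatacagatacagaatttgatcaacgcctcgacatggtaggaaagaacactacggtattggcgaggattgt
Transcript at chr1:115854563-115854815, minus strand: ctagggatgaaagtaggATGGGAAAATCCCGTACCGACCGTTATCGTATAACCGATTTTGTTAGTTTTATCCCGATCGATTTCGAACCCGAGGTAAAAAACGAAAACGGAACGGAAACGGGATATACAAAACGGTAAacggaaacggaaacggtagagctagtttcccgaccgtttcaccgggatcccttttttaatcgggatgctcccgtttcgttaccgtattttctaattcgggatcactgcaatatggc

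The first of these, of 294 bases, is annotated like a kinase of the plastid pathway that supplies isoprenoid precursors, and its reading frame covers bases 53 to 196. It was at 2.29, 2.496 and 3.57 FPKM in *zmccd8* and at 0 in WT. The second, of 253 bases with a frame from 18 to 137, has no description and was at 5.61, 5.58 and 3.0003 FPKM in *zmccd8* and at 0 in WT. A frame found in this way is a description of the sequence, and translation was not measured.

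Gene families were read from the description of each annotated gene, 75 families with 7210 tested genes. In 36 families at least 1 gene was called and in 39 none, and 13 had a call outside chromosome 3. Called genes in families numbered 47 (0.652%), near the 0.586% called over all annotated genes. The median difference over all annotated genes, beside which that of each family is to be read, was −0.02. Counts at an unadjusted p under 0.05 are to be read beside 1416 higher and 1813 lower among the 24412 annotated genes.

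**Figure D4:**
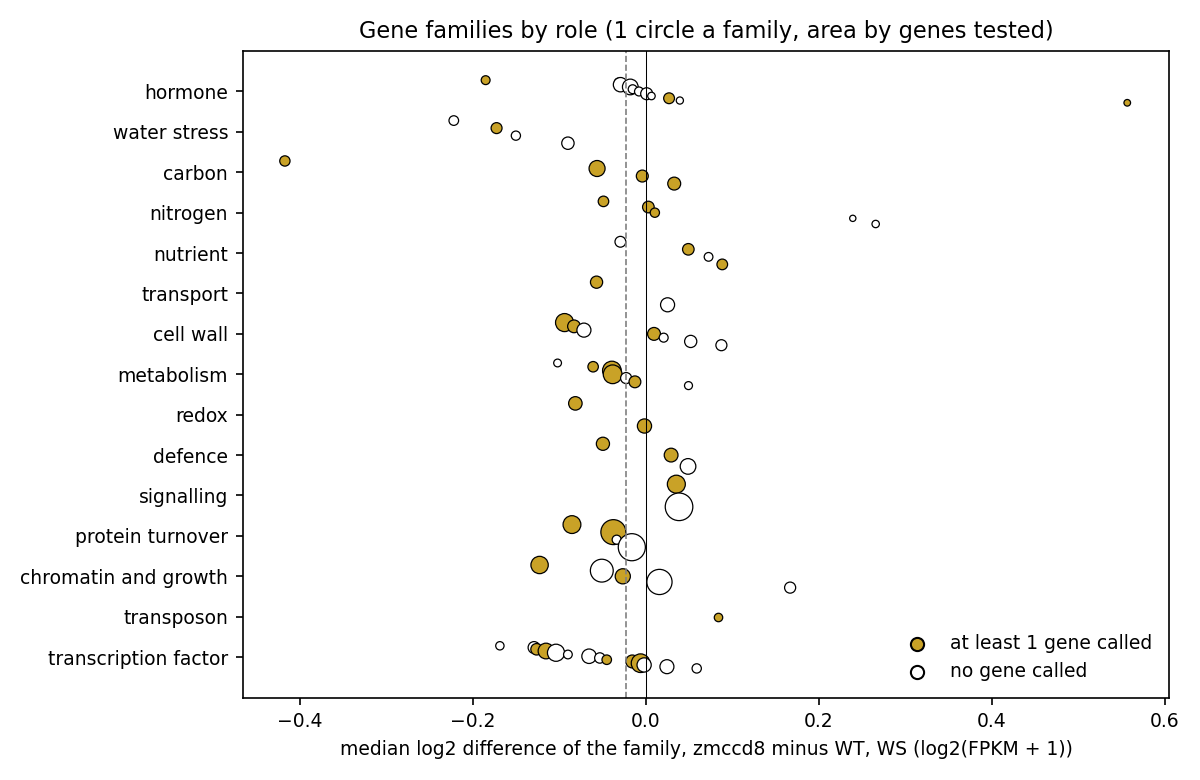
Median log2 difference under WS (x axis, *zmccd8* minus WT on log2(FPKM + 1)) of each of the 75 families, grouped by role (y axis), with circle area by the number of tested genes, filled circles where at least 1 gene was called and a dashed line at the median of all annotated genes (−0.02). Photosynthesis lies lowest at −0.42 and strigolactone synthesis highest at 0.56.

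In nitrogen nutrition 7 of 164 tested genes (4.27%) were called, against 0.586% over all annotated genes. Of the 7, 6 were on chromosome 3, where 4.57% of all tested features were called, and 1 was outside it. Of 66 amino acid transporters 4 rose and 1 fell, which made 7.58% called. Both genes annotated as the BAT1 homolog, a two-way amino acid carrier, rose, Zm00001eb141470 at 20.9, 18.9 and 21.2 FPKM in *zmccd8* and 6.07, 7.34 and 5.46 FPKM in WT (1.55, SE 0.13) and Zm00001eb141450 by 1.67 (SE 0.21), and both overlap another feature on the same strand. Amino acid permease 3, an importer of the plasma membrane, rose at both of its called loci, of which Zm00001eb349050 on chromosome 8 was at 20.0, 22.5 and 15.5 FPKM in *zmccd8* and 5.97, 4.61 and 8.23 FPKM in WT (1.499, SE 0.22, adjusted p = 0.0248). The other, Zm00001eb145670 on chromosome 3, differed by 1.06. The calls of Zm00001eb141450, Zm00001eb349050 and Zm00001eb145670 held in 1, 2 and 1 of the 6 fits without a library. Amino acid permease 5 (Zm00001eb145880, chromosome 3) fell, at 0.177, 0.178 and 0.169 FPKM in *zmccd8* and 1.71, 1.37 and 1.72 FPKM in WT. The family's median was 0.0030. Of these 5 calls 4 were on chromosome 3, which held 12 of the 66 tested genes.

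Nitrate genes showed no common direction. A nitrate reductase gene on chromosome 3 (Zm00001eb152470), for the enzyme that starts nitrate assimilation, was at 0 in *zmccd8* and at 4.16, 4.205 and 3.14 FPKM in WT, at least 181-fold lower. *ZmNPF1.1* (Zm00001eb152400), a nitrate or peptide transporter gene was at 2.23, 3.32 and 2.54 FPKM in *zmccd8* and 0.607, 0.202 and 0.703 FPKM in WT (1.302, SE 0.19, adjusted p = 0.0288), a call that was lost whenever any 1 library was left out. Of 13 high-affinity nitrate and ammonium transporter genes limma called none, with 4 higher and 0 lower at an unadjusted p under 0.05, and the median was 0.27. The most abundant of these, for the activating protein of the nitrate carriers (Zm00001eb246140), was at 96.5, 136 and 136 FPKM in *zmccd8* and 103, 145 and 68.8 FPKM in WT, which overlap.

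Of 65 tested genes for nicotianamine, phytosiderophores and metal transport 2 (3.08%) rose, both outside chromosome 3, against 0.586% called over all annotated genes. The median was 0.05, and 13 were higher and 2 lower at an unadjusted p under 0.05, against 1416 higher and 1813 lower among the 24412 annotated genes. Nicotianamine synthase 3 (Zm00001eb331330, chromosome 7), which makes the metal chelator from which grasses derive phytosiderophores, was at 75.2, 107 and 85.7 FPKM in *zmccd8* and 43.1, 33.8 and 29.5 FPKM in WT (1.31, SE 0.18, adjusted p = 0.0206). The zinc transporter 3 gene (Zm00001eb071010, chromosome 2) was at 85.1, 89.8 and 72.6 FPKM in *zmccd8* and 42.8, 35.4 and 30.7 FPKM in WT (1.17, SE 0.15, adjusted p = 0.0135). The nicotianamine synthases summed to 103 to 142 FPKM in *zmccd8* and 62.0 to 94.2 FPKM in WT. The sum includes nicotianamine synthase 3, the 1 called of 11 tested, so it does not show the direction of the other synthases. The call of nicotianamine synthase 3 held in 1 and that of zinc transporter 3 in 3 of the 6 fits without a library. In phosphate nutrition a purple acid phosphatase 2 gene on chromosome 3 (Zm00001eb151650), which releases phosphate from organic compounds, was the 1 call among 52, at 19.3, 12.6 and 19.3 FPKM in *zmccd8* and 6.23, 4.76 and 7.16 FPKM in WT, a call that held in 1 of the 6.

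In families tied to water stress 2 of 205 genes (0.976%) were called, both on chromosome 3, against 0.586% over all annotated genes. At an unadjusted p under 0.05, 1416 of the 24412 annotated genes were higher and 1813 lower. In the group of 56 genes for LEA proteins and dehydrins, which protect dry cells, 2 on chromosome 3 fell. The group also takes in genes described as HVA22-like, which are neither LEA proteins nor dehydrins. The dehydrin gene Zm00001eb155620 was at 2.79, 5.67 and 3.57 FPKM in *zmccd8* and 15.8, 12.3 and 21.98 FPKM in WT (−1.82, SE 0.27), and the HVA22-like gene Zm00001eb154270 differed by −1.65, calls that held in 2 and 3 of the 6 fits without a library. None of 38 genes for raffinose, proline, betaine and trehalose was called, with 0 higher and 10 lower at an unadjusted p under 0.05 and a median of −0.22. The most abundant, a galactinol-sucrose galactosyltransferase of raffinose synthesis (Zm00001eb303190), was at 389, 563 and 550.1 FPKM in *zmccd8* and 626, 761 and 748 FPKM in WT, without overlap but with an adjusted p of 0.315. None of 33 aquaporins was called, with 1 higher and 6 lower at an unadjusted p under 0.05 and a median of −0.15, and the tonoplast aquaporin TIP1-1 (Zm00001eb003730) was at 202, 225 and 281 FPKM in *zmccd8* and 419, 325 and 534 FPKM in WT (−0.83, adjusted p = 0.173). None of 78 heat shock proteins and chaperones was called (3 higher and 5 lower at an unadjusted p under 0.05), and none of 14 genes of abscisic acid synthesis and breakdown (1 higher and 1 lower).

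Photosynthesis genes had the lowest family median, −0.42, with 17 lower and 1 higher of 47 at an unadjusted p under 0.05. Over the 24412 annotated genes 1813 were lower and 1416 higher at that p. The 1 called was a subunit gene of the photosynthetic NDH complex on chromosome 3 (Zm00001eb142440), at 1.49, 1.64 and 1.75 FPKM in *zmccd8* and 9.95, 6.14 and 10.2 FPKM in WT. The leaf markers given above, Rubisco small subunit and chlorophyll a-b binding proteins, lay lower in *zmccd8* in the same libraries, and their part in this median was not tested. Of 71 sugar and polyol transporters 2 (2.82%) were called, against 0.586% over all annotated genes. Both fell, polyol transporter 5 above and the sucrose exporter SWEET13 on chromosome 3 (Zm00001eb133100). SWEET13 was at 1.46, 1.00 and 1.06 FPKM in *zmccd8* and 3.38, 4.28 and 6.25 FPKM in WT, a call that held in 0 of the 6 fits without a library. The median of the 71 was −0.0040. In glycolysis and fermentation the phosphoglycerate mutases above were the 2 calls of 87 (2.30%), 1 of them on chromosome 3.

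In cell wall families 3 of 631 genes (0.475%) and in families of metabolism 5 of 613 (0.816%) were called, against 0.586% over all annotated genes. Of 84 expansins and xyloglucan endotransglucosylases, which loosen walls, 1 fell, Zm00001eb414340 on chromosome 10, at 43.8, 45.1 and 46.4 FPKM in *zmccd8* and 90.2, 88.9 and 129.6 FPKM in WT (−1.15, SE 0.16). Of 206 cytochromes P450 2 fell. CYP98A1 on chromosome 3 (Zm00001eb150550), of the enzyme group that hydroxylates lignin precursors, was at 10.2, 11.8 and 9.93 FPKM in *zmccd8* and 26.4, 30.1 and 36.0 FPKM in WT (−1.44, SE 0.14). CYP78A9 on chromosome 1 (Zm00001eb002760), of a group that promotes organ growth in Arabidopsis, was at 18.4, 18.6 and 22.1 FPKM in *zmccd8* and 43.4, 53.7 and 35.2 FPKM in WT (−1.11, SE 0.16). The calls of Zm00001eb414340 and Zm00001eb002760 each held in 1 of the 6 fits without a library. Laccase-7 (Zm00001eb147850), which polymerises lignin precursors, fell by 1.14 and was the 1 call among 86 genes of laccases and monolignols. None of 107 class III peroxidases (3 higher and 7 lower at an unadjusted p under 0.05), 57 cellulose synthase genes (12 higher and 5 lower), 75 pectin genes (5 higher and 6 lower) and 19 benzoxazinoid genes (1 higher and 1 lower) was called. An anthocyanidin glucosyltransferase gene on chromosome 3 (Zm00001eb154000) fell, at 0.139, 0.230 and 0.230 FPKM in *zmccd8* and 18.0, 18.2 and 24.9 FPKM in WT (−4.14, SE 0.17), and it overlaps 2 features on the same strand. A probable methyltransferase gene beyond *ZmCCD8* (Zm00001eb155650) rose, at 13.03, 17.7 and 14.2 FPKM in *zmccd8* and 3.38, 3.46 and 1.74 FPKM in WT.

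Calls in redox (2 of 207 genes, 0.966%), defence (3 of 331, 0.906%) and signalling families (2 of 655, 0.305%) were all on chromosome 3. Over all annotated genes 0.586% were called, and 98 of those 143 calls were on chromosome 3. A glutathione S-transferase gene (Zm00001eb141060), of enzymes that conjugate toxic compounds, was at 8.82, 15.7 and 16.3 FPKM in *zmccd8* and 65.8, 55.1 and 74.6 FPKM in WT (−2.21, SE 0.23). The respiratory burst oxidase homolog H gene (Zm00001eb148780), whose enzyme makes superoxide, was at 10.2, 7.23 and 8.45 FPKM in *zmccd8* and 18.0, 20.3 and 18.1 FPKM in WT (−1.05, SE 0.14). In defence, 1 of 102 disease resistance genes rose, Zm00001eb150750 with 2.65, 1.80 and 2.36 FPKM in *zmccd8* and 0.284, 0.143 and 0.0803 FPKM in WT. An acidic endochitinase gene (Zm00001eb147150) was at 1.77, 1.49 and 0.758 FPKM in *zmccd8* and at 0 in WT, at least 58.1-fold higher. The calls of the oxidase and the endochitinase each held in 1 of the 6 fits without a library. Among 190 calcium sensor genes 2 fell. CAMTA2, a calmodulin-binding transcription activator (Zm00001eb150430), was at 0.0611, 0 and 0 FPKM in *zmccd8* and 6.89, 7.52 and 6.83 FPKM in WT (−2.98, SE 0.13). A calmodulin gene (Zm00001eb150260) was at 22.7, 26.4 and 21.8 FPKM in *zmccd8* and 70.6, 85.2 and 55.7 FPKM in WT (−1.52, SE 0.17). None of 478 receptor-like kinases was called, with 42 higher and 20 lower at an unadjusted p under 0.05.

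Transcription factor families held 5 calls among 1236 tested genes (0.405%), against 0.586% over all annotated genes. All 5 were lower, as were 90 of the 143 annotated genes called. Besides the bZIP and MYB2 genes above, the calls among transcription factors were chromosome 3 genes. ERF110 (Zm00001eb146650), an ethylene response factor, was at 6.46, 7.96 and 6.65 FPKM in *zmccd8* and 25.4, 29.2 and 22.2 FPKM in WT (−1.73, SE 0.14). HOX10 (Zm00001eb145820), a homeodomain-leucine zipper factor, was at 0 in *zmccd8* and at 6.32, 3.34 and 5.76 FPKM in WT, at least 251-fold lower. NF-YB5 (Zm00001eb142030), a subunit of the CCAAT-binding complex, was at 2.60, 3.03 and 4.03 FPKM in *zmccd8* and 9.58, 13.8 and 9.27 FPKM in WT (−1.49, SE 0.20), a call that held in 2 of the 6 fits without a library. None of 110 WRKY genes (4 higher and 3 lower at an unadjusted p under 0.05), 106 NAC genes (10 higher and 6 lower) and 115 bHLH genes (6 higher and 13 lower) was called. None of 23 LBD genes was called either (0 higher and 2 lower), of which the most abundant, the LBD38-type gene Zm00001eb326200 was at 3.79, 9.58 and 13.5 FPKM in *zmccd8* and 24.5, 24.0 and 28.9 FPKM in WT (−1.57, adjusted p = 0.141).

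Protein turnover families had 2 calls among 1065 genes (0.188%) and chromatin and growth families 2 among 1070 (0.187%), again on chromosome 3. Over all annotated genes the share was 0.586%. An F-box gene (Zm00001eb150400) rose by 1.41 and the subtilisin-like protease gene SBT3.5 (Zm00001eb150950) by 1.31. The splicing factor 3B subunit 4 gene (Zm00001eb145960) was at 5.92, 7.30 and 6.03 FPKM in *zmccd8* and 1.24, 0.797 and 0.840 FPKM in WT (1.92, SE 0.16). The gene of the catalytic subunit A of DNA polymerase epsilon, which copies DNA (Zm00001eb147670), fell by 1.05. The F-box, protease and polymerase calls each held in 1 of the 6 fits without a library. Among 24 transposon-derived proteins 1 rose, a plant transposase gene on chromosome 9 (Zm00001eb384030), at 7.60, 9.65 and 7.77 FPKM in *zmccd8* and 2.76, 3.19 and 1.33 FPKM in WT, which overlaps 3 features on the same strand. None of 395 ribosomal protein genes (22 higher and 15 lower at an unadjusted p under 0.05) and none of 321 pentatricopeptide repeat genes (3 higher and 20 lower) was called.

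The study chose its sugar genes for their differences on these WS samples, so they are not independent evidence of direction. Its nitrogen transporters were listed for differences under 0N or WS, and several were not significant under WS in the study. Their values below thus pool genes chosen on the WS samples with genes chosen on others. The study's list for quantitative RT-PCR came from earlier work. Of its 7 genes of starch and sucrose metabolism 6 were tested and none was called, and all 6 were lower in *zmccd8* at an unadjusted p under 0.05, with a median difference of −0.88. *ZmBGLU15*, a beta-glucosidase (Zm00001eb334460), was at 2.43, 1.65 and 4.81 FPKM in *zmccd8* and 10.9, 9.20 and 14.3 FPKM in WT (−1.71, SE 0.30, adjusted p = 0.0603). *ZmTPS10*, a trehalose-phosphate synthase (Zm00001eb192680), was at 16.4, 24.3 and 27.01 FPKM in *zmccd8* and 41.3, 42.6 and 68.7 FPKM in WT (−1.13, adjusted p = 0.112). In both, the libraries did not overlap. The seventh, *ZmDHR2*, did not pass the filter, with 0 FPKM in each *zmccd8* library and 0.488, 0.0638 and 0.0149 FPKM in WT (exact permutation test, two-sided, p = 0.1, the smallest that 3 against 3 libraries can give).

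Of 16 tested nitrogen transporter genes on the study's list 1 was called, *ZmNPF1.1*, and the median was −0.28. At an unadjusted p under 0.05 there were 4 higher and 7 lower. *ZmNPF3.2* (Zm00001eb287980) was at 16.9, 24.3 and 26.4 FPKM in *zmccd8* and 41.9, 39.0 and 59.4 FPKM in WT (−1.02, adjusted p = 0.0993). *ZmNPF8.2* on chromosome 3 (Zm00001eb144350) was at 4.17, 4.39 and 1.78 FPKM in *zmccd8* and 0.936, 0.834 and 0.268 FPKM in WT (1.37, adjusted p = 0.112). Both had libraries that did not overlap. The high-affinity nitrate transporter *ZmNRT2.5* (Zm00001eb361110) was at 8.44, 5.77 and 10.4 FPKM in *zmccd8* and 2.80, 5.597 and 2.24 FPKM in WT (1.05, adjusted p = 0.219). *ZmNPF6.2* and *ZmAMT3.1* did not pass the filter (exact permutation tests, p = 0.2 and p = 0.1). Of the 13 tested genes on the list for quantitative RT-PCR 1 was called, *ZmCCD8*, and the median was −0.27. The phytoglobin *ZmHB2* (Zm00001eb293010), a nitric oxide scavenger, was at 3.53, 4.53 and 5.91 FPKM in *zmccd8* and 13.04, 11.1 and 7.38 FPKM in WT (−1.01, adjusted p = 0.138). *ZmNAC1* did not pass the filter (exact permutation test, p = 0.6).

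The same comparison under the other conditions used other libraries. Under CT 230 features (0.835%) and under 0N 433 (1.57%) were called. Of the WS calls 138 were called under CT, 55.6% of the WS and 60.0% of the CT calls, and 155 under 0N, 62.5% of the WS and 35.8% of the 0N calls. The share differed with the kind of feature. Of the 98 annotated chromosome 3 genes 57 were called under CT in the same direction, and of the 67 assembled transcripts elsewhere 43. Of the 45 annotated genes outside chromosome 3, 11 were called under CT, 10 under 0N and 7 under both, in the same direction, and 31 in neither. A gene called only under WS is not thereby shown to differ between conditions.

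That difference was tested by the term for genotype by WS, fitted in limma on the 12 libraries of CT and WS, which called 6 of 27530 features (0.0218%), while 2185 had an unadjusted p under 0.05. With a pseudocount of 0.1 in place of 1, or with voom on the rebuilt reads, 0 were called, where 2125 and 1940 had an unadjusted p under 0.05. Polyol transporter 5 was the only one of the 6 that is annotated, outside chromosome 3 and called under WS. Under CT it was at 2.83, 2.99 and 2.20 FPKM in *zmccd8* and 1.55, 1.83 and 0.927 FPKM in WT, and its difference under WS minus that under CT was −2.19 (SE 0.28, adjusted p = 0.0298). It was thus higher under WS than under CT in both genotypes, and less so in *zmccd8*.

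**Figure D5:**
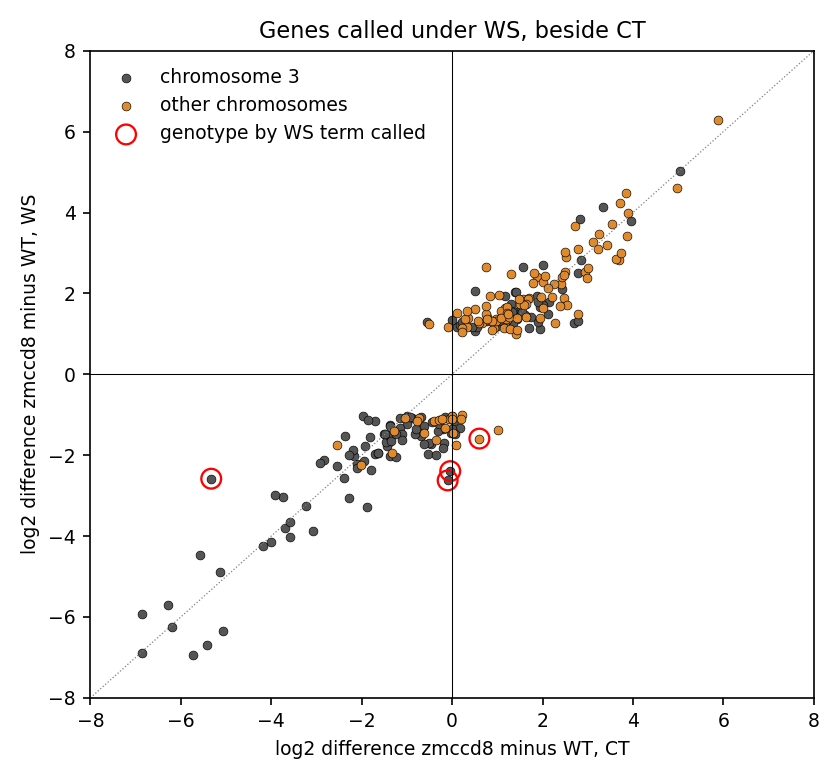
Log2 difference, *zmccd8* minus WT, of the 248 features called under WS (y axis) against that under CT (x axis), both on log2(FPKM + 1), with grey points for chromosome 3, orange points for the other chromosomes and red rings around the 4 of these features for which the term for genotype by WS was called. Most points lie near the dotted line of equal differences, and polyol transporter 5 lies at −1.59 under WS and 0.60 under CT.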

How the data were processed

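RNA-seq of whole roots gave 18 libraries, 3 for each genotype under CT, 0N and WS, grouped by their labels. The authors trimmed strand-specific reads with fastp, aligned them with HISAT2 2.0.5 to Zm-B73-REFERENCE-NAM-5.0, assembled further transcripts and deposited FPKM per gene. Their count-based comparisons were not used here. Reads rebuilt from FPKM and gene length were whole for 100% of values (tolerance 0.01) and served as depth and for voom, an alternative.

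Features that reached 1 FPKM in 3 or more of the 18 libraries were tested on log2(FPKM + 1) with limma 3.58.1 (R 4.3.3, trended variance, two-sided, Benjamini-Hochberg), on 6 libraries per condition and on 12 for genotype by WS. Tables and plots used Python 3.11.15, pandas 2.3.3, numpy 2.4.6 and matplotlib 3.10.9. In data simulated for the WS comparison over 27530 features, 163 of 200 changes of 1.5 and 184 of 200 of 2 (log2) were recovered, with 4 and 5 false calls. Weakly expressed features received none of these changes, and noise was drawn independently, so recovery at low levels was not tested.

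Named were *ZmCCD8* and the study's lists, the called genes of highest and lowest difference (6 and 6 on chromosome 3, 8 and 8 outside it, 3 and 3 assembled), up to 4 called genes per family or else its most abundant gene, and the genes called for genotype by WS. Other genes named are neighbours, strigolactone genes or genes of a shared description, picked after their values were seen. Members and lists were chosen with earlier results of these data known, and family patterns were corrected with values in view. Families were matched on the description alone, because the family column of the file was unreliable. No source says that replicates were independent batches, so p-values measure the spread between these pools, and floors cover counting error only. 1 line of the table arrived empty and was not analysed here.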

Additional observations from a re-analysis of the deposited data

Results flagged for a closer look

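The term for genotype by WS, in limma on 12 libraries, called a difference between WS and CT for 6 features. With a pseudocount of 0.1, with voom on rebuilt reads or with chromosome 3 left out it called 0. Each value below is the log2 difference (*zmccd8* minus WT) under WS minus that under CT, and no explanation was tested. Polyol transporter 5 (Zm00001eb021140), described in the report, had −2.19 (SE 0.28, adjusted p = 0.0298).

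HOX10 (Zm00001eb145820) had 2.75 (SE 0.27, adjusted p = 0.00434). Under CT it was at 0, 0 and 0.0624 FPKM in *zmccd8* and 37.1, 46.7 and 36.9 FPKM in WT, so it was lower in *zmccd8* under both conditions, and with no count in *zmccd8* under WS its difference there follows the WT level. RADIALIS-like 3 (Zm00001eb398500), a MYB-related factor on chromosome 9, had 1.79 (SE 0.23, adjusted p = 0.0308). Under WS it was at 0.277, 0.162 and 0.294 FPKM in *zmccd8* and 0, 0.132 and 0 FPKM in WT, and under CT at 1.58, 2.26 and 1.93 FPKM in *zmccd8* and 7.15, 9.04 and 6.33 FPKM in WT.

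The other features were assembled transcripts of chromosome 3. That at chr3:200027624-200030161 had −2.53 (SE 0.22, adjusted p = 0.00203), with 0 in *zmccd8* and 5.41, 4.11 and 6.16 FPKM in WT under WS, and 0 in *zmccd8* and 0.0332, 0.0718 and 0.108 FPKM in WT under CT. That at chr3:185090935-185093947 had −2.35 (SE 0.28, adjusted p = 0.0231), with 0.0476, 0.0335 and 0.0578 FPKM in *zmccd8* and 4.58, 2.99 and 6.47 FPKM in WT under WS. Under CT it was at 0 in *zmccd8* and at 0, 0.0896 and 0 FPKM in WT. That at chr3:144676762-144677508 had 2.03 (SE 0.28, adjusted p = 0.043), with 0 in *zmccd8* and 0.0796, 0.0693 and 0.243 FPKM in WT under WS, and 0 in *zmccd8* and 4.85, 2.31 and 4.04 FPKM in WT under CT. In these transcripts *zmccd8* was at or near 0 under both conditions, so the values of the term follow the WT level.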

How the results depend on the processing

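Of 73 called genes and transcripts among the 126 followed through every setting, 0 changed direction. Testing annotated genes only gave 133 calls under WS, 41 outside chromosome 3, 109 under CT, 209 under 0N and 3 for genotype by WS. Leaving chromosome 3 out gave 96 under WS, 10 in families, 76 under CT and 160 under 0N. A mean of at least 5 FPKM gave 105 under WS, 67 on chromosome 3, 38 outside it, 84 under CT, 184 under 0N and 2 for genotype by WS. With no filter there were 139 under WS, 79 on chromosome 3, 60 outside it, 16 in families, 124 under CT and 215 under 0N. These settings tested other numbers of features. A fit on all 18 libraries gave 1443 under 0N and 17 for genotype by WS. For genotype by WS limma called 0 with chromosome 3 left out, 0 with a pseudocount of 0.1 and 0 with voom on rebuilt reads, where 1852, 2125 and 1940 features had an unadjusted p under 0.05.

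Leaving out 1 library gave 152 (WT 1) to 233 (WT 2) calls under WS, 86 to 118 on chromosome 3, 66 to 120 outside it, 23 (WT 1) to 45 in families, where there were 25 without *zmccd8* 1 and 25 without *zmccd8* 2, 2 to 7 for genotype by WS, 131 to 178 under CT and 171 to 984 (without *zmccd8* 3) under 0N. The cause was not tested.

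Same-numbered replicates under WS had correlated deviations of 0.072, 0.108 and 0.288, which does not show that the numbers pair the samples. With the replicate number as a block, 268 features were called under WS, 221 of them shared with the unblocked calls, 131 under 0N and 2 for genotype by WS.

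The reversals were all among uncalled genes close to 0. Without 1 library the log2 difference ranged from −0.065 to 0.328 for Zm00001eb360420, −0.062 to 0.203 for Zm00001eb130870, −0.0058 to 0.524 for Zm00001eb246140, −0.283 to 0.056 for Zm00001eb009800, −0.347 to 0.265 for Zm00001eb304540, −0.023 to 0.278 for Zm00001eb116010, −0.639 to 0.186 for Zm00001eb412980, −0.045 to 0.107 for Zm00001eb129730, −0.331 to 0.361 for Zm00001eb234120 (0.0099 with voom) and −0.174 to 0.00096 for Zm00001eb289490.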

Other observations

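Some descriptions occurred both at a chromosome 3 gene that fell in *zmccd8* and at an assembled transcript elsewhere that was at 0 in every WT library. These were picked after their values were seen, and whether the loci share sequence was not tested. For long chain acyl-CoA synthetase 9, Zm00001eb153400 on chromosome 3 was at 0 in *zmccd8* and at 90.2 to 150.3 FPKM in WT, while the transcript at chr8:172321429-172322293 was at 1.95, 1.83 and 1.22 FPKM in *zmccd8* and at 0 in WT. For FATTY ACID EXPORT 3, Zm00001eb149540 on chromosome 3 was at 3.08, 4.48 and 4.87 FPKM in *zmccd8* and 11.8, 11.7 and 11.7 FPKM in WT (−1.33), while the chromosome 1 transcript of the report was at 12.96 to 16.7 FPKM in *zmccd8* and at 0 in WT. For the NPL4-like protein, Zm00001eb146560 on chromosome 3 was at 3.996 to 4.59 FPKM in *zmccd8* and 9.56 to 11.7 FPKM in WT (−1.09), while the transcript at chr1:218772708-218773328 was at 6.02, 8.53 and 8.59 FPKM in *zmccd8* and at 0 in WT.

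An assembled transcript 2.60 Mb before *ZmCCD8* (chr3:199582360-199586566), annotated as a putative AC transposase, was at 0.00836, 0 and 0.112 FPKM in *zmccd8* and 15.0, 13.3 and 12.3 FPKM in WT (−3.80).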
